A study of Mus musculus with 3 samples.

Results

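TRAV14 is a family of closely related variable (V) genes of the T cell receptor alpha chain (TRA), and its use was read here in T cells from inflamed sciatic nerves. Members were taken as all productive TRA contigs, that is, assembled transcripts with an open reading frame, on cell barcodes whose V gene name was TRAV14 followed by a hyphen, D- or N-. There were 431 such contigs of 5745 TRA contigs, in 421 of 5269 cells with a TRA. They formed 253 of 3325 TRA rearrangements, where a rearrangement is defined by the V gene, the joining (J) gene and the nucleotides of the third loop (CDR3) and is counted once in a library.

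The study sorted CD45+ immune cells from sciatic nerves of 4 neuropathic NOD.AireGW/+ female mice, and age was not given in the sources used here. NOD mice are prone to autoimmunity, and the heterozygous AireGW allele carries a point mutation that weakens Aire, the thymic regulator that displays tissue antigens to developing T cells. Replicates 1 and 2 were 1 mouse each and replicate 3 was a pool of 2 mice, so the cells of replicate 3 cannot be split by animal. No healthy or untreated nerve was among these samples, and values therefore describe 1 condition, with comparisons made between receptors inside a library. The files held receptor contigs and no gene expression, so no T cell subset was named. The libraries had 2374, 3555 and 705 cells with a productive contig and 34630, 41338 and 5142 unique molecular identifiers (UMIs, tags that mark single transcripts), and replicate 3 gave the widest intervals. The median UMI number of a TRAV14 contig was 5, 4 and 3 in replicates 1 to 3, beside 5, 3 and 3 for other TRA contigs. Replicates 1 and 2 shared 7 barcodes and replicates 2 and 3 shared 3 barcodes, and no shared barcode carried the same TRA in both libraries. Of these, the 3 shared by replicates 2 and 3 each held a TRAV14 TRA in at least 1 of the libraries.

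An alpha chain is made in the thymus by joining a TRAV gene to a TRAJ gene, with bases trimmed from and added to the joint. The V gene encodes the loops CDR1 and CDR2, which mostly contact the MHC molecule, whereas the joint forms CDR3, which lies over the peptide. In mice the TRAV locus has been duplicated, so most families hold several copies, marked D or N where they lie in the duplicated blocks. A developing cell can rearrange the same locus repeatedly, moving outward to more distant TRAV and TRAJ genes.

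The reference genome GRCm38 holds 9 TRAV14 copies, all on the plus strand of chromosome 14. In order toward the TRAJ genes, their V exons are TRAV14D-1 at chr14:52855855-52856166, TRAV14D-2 at chr14:52948858-52949169, TRAV14D-3-DV8 at chr14:53078737-53079045, TRAV14N-1 at chr14:53166867-53167178, TRAV14N-2 at chr14:53259868-53260179, TRAV14N-3 at chr14:53370267-53370575, TRAV14-1 at chr14:53554247-53554558, TRAV14-2 at chr14:53640914-53641225 and TRAV14-3 at chr14:53763386-53763694. The files named 6 of them, and TRAV14N-1, TRAV14N-2 and TRAV14-2 were not named in any contig. The V exon of TRAV14N-1 is identical to that of TRAV14D-1 and that of TRAV14N-2 to that of TRAV14D-2, so reads from these pairs cannot be told apart. All 9 end in the same 13 bases from the conserved cysteine codon, tgtgcagcaagtg, which is the part of CDR3 that the V gene brings.

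The copies differed in the loops that the V gene fixes. V regions of 267 bases, from framework 1 to framework 3, were read from all 316 TRAV14 contigs of replicates 2 and 3, and V region sequences of replicate 1 were not used here. They fell into 8 distinct sequences, with 3 forms of CDR1, 5 forms of CDR2 and 5 pairs of CDR1 with CDR2. The loops are shown because they are the germline-encoded contacts by which the copies differ, with capitals for bases that are not those of the TRAV14D-1 loop.
TRAV14D-1 CDR1: gacagcacttttaactac
TRAV14D-1 CDR2: ataagttcagtgtccgataaa
TRAV14-1 CDR1: gacagcacttttaactac
TRAV14-1 CDR2: ataCTttcagtgtccgataaa
TRAV14D-2 CDR1: gacagcacttttGactac
TRAV14D-2 CDR2: ataagttTGgtgtccAataaa
TRAV14N-3 CDR1: AacagTGcttttGactac
TRAV14N-3 CDR2: ataCgttcagtgtccgataaa
TRAV14-3 CDR1: AacagTGcttttGactac
TRAV14-3 CDR2: ataCgAtcagtgtccgataaa
TRAV14D-3-DV8 CDR1: AacagTGcttttGactac
TRAV14D-3-DV8 CDR2: ataCgAtcagtgtccgataaa

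The NOD contigs were not all identical to the GRCm38 copy whose name they carried. With positions counted from 1 at the first base of framework 1 and the reference base given first, TRAV14-1 contigs carried C191T alone, TRAV14N-3 contigs carried T22C and C181G, and TRAV14D-1 contigs carried C151A, which lies in CDR2, and T258C. The main TRAV14D-2 sequence, in 52 of its 57 contigs, differed from its copy at 10 positions, and the main TRAV14-3 sequence, in 34 of 38 contigs, at 6 positions. All 20 TRAV14D-3-DV8 contigs shared 1 sequence, which differed from the reference TRAV14D-3-DV8 at 10 positions but from the reference TRAV14-3 at 8. It differed by 2 bases from the main TRAV14-3 sequence, its CDR1 and CDR2 were the same, and 2 contigs named TRAV14-3 carried it. The names TRAV14-3 and TRAV14D-3-DV8 were therefore uncertain in these mice, and counts of the pair are also given together below.

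TRAV14 made up a similar part of the alpha chain rearrangements of each library. It accounted for 89 of 1231 rearrangements in replicate 1 (7.23%, exact Clopper-Pearson 95% interval 5.85 to 8.82), 142 of 1700 in replicate 2 (8.35%, 7.08 to 9.77) and 22 of 394 in replicate 3 (5.58%, 3.53 to 8.33). The mean was 7.06% ± 1.39 (SD, n = 3), and TRAV14 ranked 7th of the TRAV families by mean share, between TRAV12 at 7.72% ± 0.437 and TRAV4 at 5.39% ± 0.648 (SD, n = 3 each). The mean of TRAV12 lay within the range of TRAV14 over libraries and that of TRAV4 just below it, although in replicate 3 TRAV4 (5.84%) was above TRAV14. Intervals here cover counting error only.

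By cells the libraries were less alike. TRAV14 was carried by 113 of 1989 cells with a TRA in replicate 1 (5.68%, interval 4.70 to 6.79), 285 of 2819 in replicate 2 (10.1%, 9.02 to 11.3) and 23 of 461 in replicate 3 (4.99%, 3.19 to 7.39), a mean of 6.93% ± 2.78 (SD, n = 3). Replicate 2 was the highest, and its interval did not overlap those of replicates 1 and 3. Intervals over cells, here and below, treat cells as independent, which cells of 1 clone are not. In replicate 2, 188 of 293 TRAV14 contigs were in rearrangements of more than 1 cell. These intervals are therefore too narrow to compare libraries. Without the largest rearrangement of replicate 2, TRAV14 was still in 249 of 2783 cells of that library (8.95%).

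All 6 names occurred in every library. TRAV14D-1 was the most frequent, with 31, 38 and 4 rearrangements in replicates 1 to 3 (73 in all, 28.9% of the family) in 151 cells. TRAV14D-2 had 18, 21 and 4 (43 in all, in 82 cells) and TRAV14-3 had 9, 25 and 4 (38 in all, in 48 cells). TRAV14N-3 had 11, 22 and 3 (36 in all, in 49 cells), TRAV14-1 had 7, 23 and 4 (34 in all, in 65 cells) and TRAV14D-3-DV8 had 13, 13 and 3 (29 in all, in 34 cells). TRAV14D-1 led in replicates 1 and 2, whereas in replicate 3 the names held 3 or 4 rearrangements each. The share of TRAV14-1 was 7.87% of the family in replicate 1 (interval 3.22 to 15.5) and 16.2% in replicate 2 (10.6 to 23.3), intervals that overlapped.

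**Figure D1:**
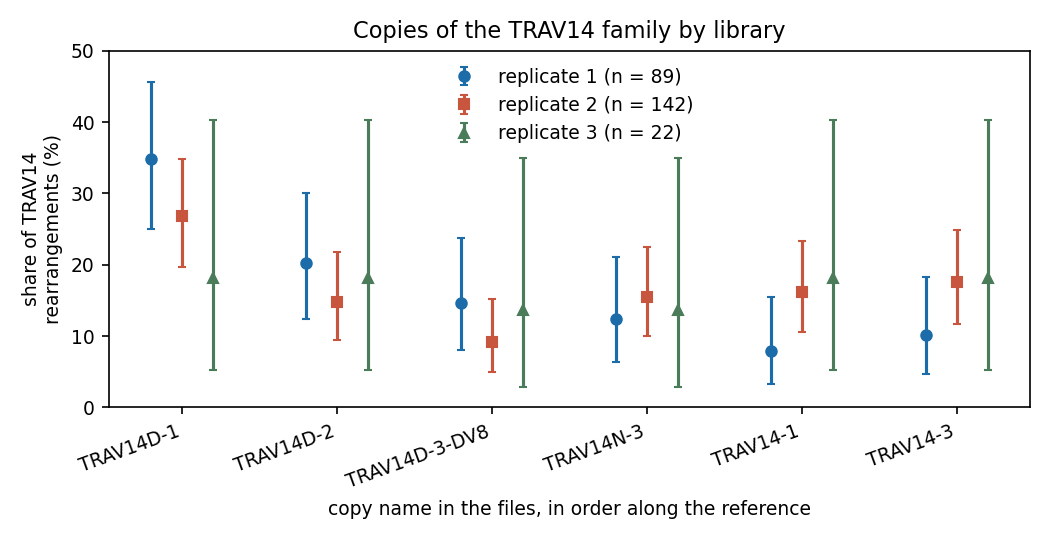
Share of TRAV14 rearrangements (percent, y axis) held by each copy name (x axis), with 1 point a library and bars for the exact Clopper-Pearson 95% interval. TRAV14D-1 had the highest share in replicates 1 and 2 (34.8% and 26.8%), and the intervals of replicate 3, with 22 rearrangements, held every value of replicates 1 and 2 for the same name.

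The copies joined TRAJ genes at different mean positions. Position was measured on GRCm38 as the distance in kilobases (kb) from the TRAJ gene that lies nearest the TRAV genes, so a small value means a TRAJ gene close to the TRAV side. TRAV14D-3-DV8 had the lowest mean, at 17.9, 17.7 and 18.3 kb in replicates 1 to 3, and TRAV14N-3 the highest, at 35.2, 34.3 and 36.2 kb. TRAV14-3 had 21.2, 19.6 and 31.7 kb, the last from 4 rearrangements. TRAV14-1 had 30.1, 29.8 and 19.6 kb, TRAV14D-2 had 31.3, 31.3 and 27.7 kb, and TRAV14D-1 had 30.7, 32.1 and 33.5 kb.

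The names TRAV14D-3-DV8 and TRAV14-3, whose sequences were nearly identical, had the lowest pooled means, 17.8 kb ± 13.6 for TRAV14D-3-DV8 (SD over 29 rearrangements) and 21.2 kb ± 12.1 for TRAV14-3 (SD over 38). Counted as 1 group they stood at 19.2, 18.9 and 25.9 kb in replicates 1 to 3, and the other 4 names at 31.5, 31.9 and 28.8 kb. This grouping was chosen after the values were seen and was not tested. In the reference, TRAV14-3 lies 391 kb from the first TRAJ gene, the shortest distance in the family, and TRAV14D-3-DV8 lies 1076 kb from it. The comparison of D copies with copies that carry no letter gave differences of 3.08, 4.81 and 1.59 kb (mean 3.16 ± 1.61, SD, n = 3), higher for D copies in 3 of 3 libraries, with an exact two-sided sign-flip permutation p of 0.25, the smallest that 3 libraries allow. That comparison rested on the doubted names, since the mean was 8.27 kb ± 1.14 with TRAV14D-3-DV8 counted as TRAV14-3 and 4.59 kb ± 5.56 with both names left out (SD, n = 3 each), alternatives chosen after seeing the data. The D group can also hold N copies. Of its 145 rearrangements, 73 were named TRAV14D-1 and 43 TRAV14D-2, whose V exons are identical to those of TRAV14N-1 and TRAV14N-2.

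**Figure D2:**
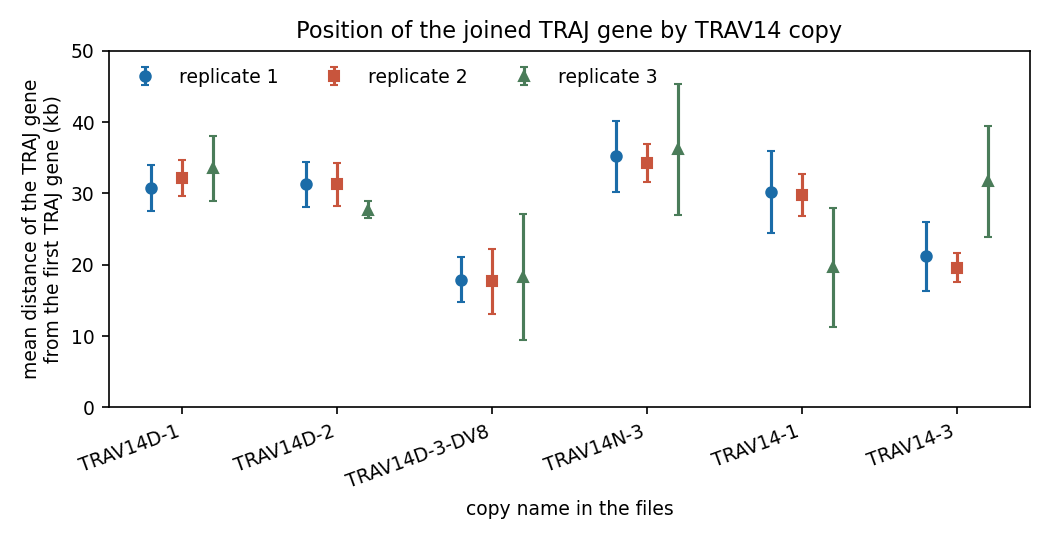
Mean distance of the joined TRAJ gene from the first TRAJ gene (kb, y axis) for each TRAV14 copy name (x axis), with 1 point a library and bars for the standard error over rearrangements. TRAV14D-3-DV8 lay near 18 kb in all 3 libraries, and TRAV14N-3 lay between 34.3 and 36.2 kb.

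Among TRAJ genes, TRAJ58 was joined to TRAV14 more often than its overall use predicted. It was in 6 of 89 TRAV14 rearrangements of replicate 1 (6.74%, beside 1.49% of other families), 4 of 142 of replicate 2 (2.82%, beside 1.09%) and 2 of 22 of replicate 3 (9.09%, beside 1.61%). The 12 observed were 3.11 times the 3.86 expected, with an adjusted p of 0.0392 in the exact conditional test stratified by library, and TRAV14 was above in 3 of 3 libraries. Over all pairs of TRAV family and TRAJ gene tested, 0.771% were called (3 of 389, and 45 had an unadjusted p under 0.05), and of the 32 pairs with TRAV14 this was the only one called, with 3 at an unadjusted p under 0.05. The median ratio of observed to expected was 0.905 over TRAV14 pairs and 0.979 over all pairs.

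The TRAJ58 call was close to the threshold. Its adjusted p was 0.0905 without replicate 3, 0.0909 with the copy names merged, 0.0560 in cells with exactly 1 TRA and 0.188 over amino acid rearrangements, within a range over alternatives of 0.0335 to 0.188, while the ratio stayed between 2.73 and 3.28. Without replicate 1 or without replicate 2 the expected number fell under the minimum of 3 and the pair was not tested. TRAJ58 lies at chr14:54157280-54157342, 2.28 kb from the first TRAJ gene. Its 12 rearrangements used 5 copies and were in 14 cells, and none was in more than 2 cells.

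The TRAJ58 joints are shown because 3 rearrangements had the same nucleotides. Capitals mark bases that matched neither the V end nor the TRAJ start of the reference.
Germline TRAJ58 part of CDR3: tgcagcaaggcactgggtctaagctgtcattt
TRAV14D-1, replicate 1: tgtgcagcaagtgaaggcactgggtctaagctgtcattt
TRAV14D-2, replicate 1: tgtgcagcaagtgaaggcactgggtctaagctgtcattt
TRAV14D-3-DV8, replicate 3: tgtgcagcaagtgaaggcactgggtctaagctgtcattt
TRAV14D-3-DV8, replicate 1: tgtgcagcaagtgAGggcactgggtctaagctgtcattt
TRAV14D-3-DV8, replicate 2: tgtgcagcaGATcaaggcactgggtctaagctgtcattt
TRAV14D-2, replicate 2: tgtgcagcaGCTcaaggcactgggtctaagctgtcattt
The first 4 rearrangements encode 1 amino acid CDR3 of 13 residues, and each was in 1 cell. In replicate 1, the TRAV14D-2 joint and the TRAV14D-3-DV8 joint were in different cells that held the same TRBV5 TRBJ1-6 beta chain (TRB) by nucleotides, whereas the TRAV14D-1 joint was with a TRBV31 TRB. The cell of replicate 3 had no TRB.

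The other most frequent partners did not pass the test. TRAJ31, at chr14:54187895-54187951, was in 8, 11 and 1 TRAV14 rearrangements (20, against 11.8 expected, ratio 1.70, adjusted exact p = 0.336). TRAJ23, at chr14:54196081-54196140, was in 7, 12 and 0 (19, against 12.5 expected, ratio 1.51, adjusted exact p = 0.472). TRAJ49, at chr14:54168686-54168747, was in 6, 9 and 1 (16, against 10.6 expected, ratio 1.51, adjusted exact p = 0.560). TRAJ12 was in 2, 6 and 2 (10, against 6.50 expected, adjusted exact p = 0.646). TRAJ26, TRAJ37 and TRAJ40 also had 10, against 7.90, 8.23 and 11.5 expected, so that TRAJ40 was below expectation. At the other end, TRAJ18 was in 2 rearrangements against 7.07 expected (adjusted exact p = 0.429). These adjusted p-values are from the same stratified test with Benjamini-Hochberg adjustment over 389 pairs. By the overlap of TRAJ shares, which is 1 where families use TRAJ genes in the same proportions, the families most like TRAV14 over 42 TRAJ genes were TRAV6 (0.750), TRAV12 (0.746) and TRAV7 (0.744), and they did not stand apart from TRAV5 (0.743). The overlap was not adjusted for family size. Families ranked 1 to 6 had at least 259 rearrangements, and those ranked lower had at most 174.

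**Figure D3:**
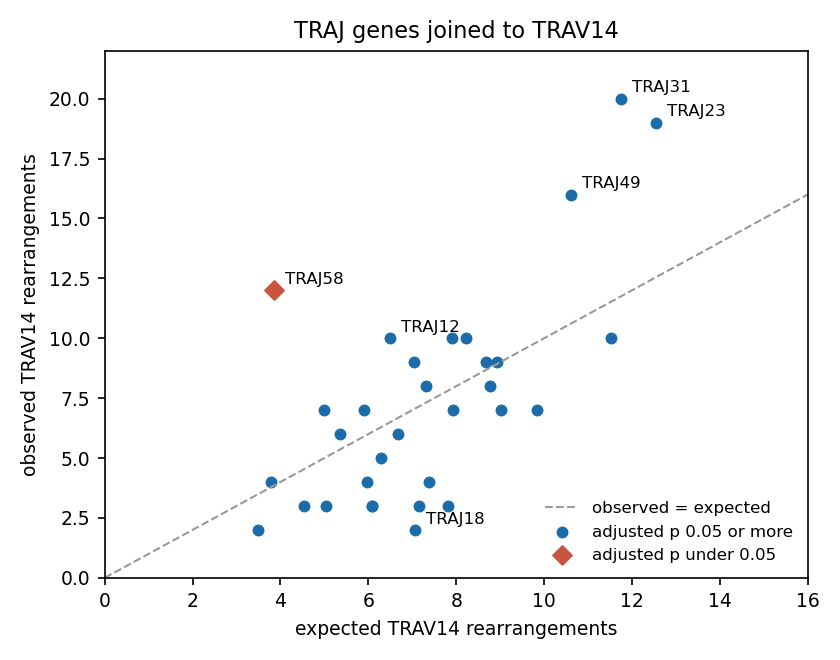
Observed TRAV14 rearrangements (y axis) against the number expected from the use of each TRAJ gene in each library (x axis), with 1 point a TRAJ gene for the 32 genes tested and a dashed line where both are equal. TRAJ58, at 12 observed and 3.86 expected, is the only gene with an adjusted p under 0.05.

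TRAJ23 stood out by cells in replicate 2 alone, and not by rearrangements. It was in 9 of 113 TRAV14 cells in replicate 1 (7.96%, exact interval 3.71 to 14.6), 72 of 285 in replicate 2 (25.3%, 20.3 to 30.7) and 0 of 23 in replicate 3, with an exact interval of 0 to 14.8%. Replicate 2 was high because 4 of its TRAJ23 rearrangements held 36, 9, 8 and 8 cells. Without the largest, TRAJ23 was in 36 of 249 TRAV14 cells of replicate 2 (14.5%). The 19 TRAJ23 rearrangements used all 6 copies, had CDR3s of 11 to 15 residues and carried 0 to 12 non-germline bases (median 3, as in the whole family), and 8 of them were in more than 1 cell.

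The TRAJ23 joints with most cells are shown with their close relatives, with capitals again for bases matched by neither germline end.
Germline TRAJ23 part of CDR3: tgaattataaccaggggaagcttatcttt
TRAV14D-1, replicate 2, 36 cells: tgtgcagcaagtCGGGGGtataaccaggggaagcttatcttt
TRAV14D-1, replicate 1, 1 cell: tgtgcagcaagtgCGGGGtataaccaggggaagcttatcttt
TRAV14D-1, replicate 1, 2 cells: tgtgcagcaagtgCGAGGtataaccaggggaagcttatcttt
TRAV14-1, replicate 2, 9 cells: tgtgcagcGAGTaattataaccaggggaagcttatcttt
TRAV14D-2, replicate 2, 8 cells: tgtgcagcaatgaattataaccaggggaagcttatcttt
TRAV14-1, replicate 1, 1 cell: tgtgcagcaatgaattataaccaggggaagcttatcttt
TRAV14-1, replicate 2, 1 cell: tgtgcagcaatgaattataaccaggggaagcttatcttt
TRAV14N-3, replicate 2, 8 cells: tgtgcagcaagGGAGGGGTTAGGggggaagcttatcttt
A joint with no non-germline base was present under the names TRAV14D-2 and TRAV14-1 in replicate 2 and TRAV14-1 in replicate 1, while the largest rearrangement carried 6 non-germline bases. The 8 cells with that joint under TRAV14D-2 held 5 different TRBs, so they were not 1 clone.

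CDR3 loops of TRAV14 chains were shorter on average than those of other families in each library. Mean lengths were 13.3, 13.2 and 12.95 residues in replicates 1 to 3, beside 13.6, 13.6 and 13.6 for other TRAs, so that the differences were -0.298, -0.409 and -0.693 residues (mean -0.467 ± 0.204, SD, n = 3). The sign was the same in 3 of 3 libraries, and the exact two-sided sign-flip permutation p was 0.25, the smallest possible with 3 libraries, so the test could not pass 0.05. Compared within the same TRAJ gene, the differences were -0.232, -0.337 and -0.511 residues (mean -0.360), so they were also present where TRAJ use was held equal. The most frequent length was 13 residues in the family (36.4% of rearrangements, beside 27.9% of others), and 15 residues was less frequent (9.88% beside 16.6%). No TRAV14 CDR3 was longer than 16 residues.

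Most TRAV14 rearrangements kept the larger part of the V end. Of 253, 224 (88.5%) kept at least 9 of the 13 germline bases, with 91.0%, 87.3% and 86.4% in replicates 1 to 3. This share was not taken for other families. TRAV14 chains matched 1.04, 0.824 and 1.01 more V bases than other families (exact sign-flip permutation p = 0.25). They matched fewer TRAJ bases of the reference, with differences of -1.003, -0.442 and -3.46 (mean -1.64 ± 1.61, SD, n = 3, exact sign-flip permutation p = 0.25). Non-germline bases averaged 4.29, 3.95 and 5.36 in TRAV14 and 5.25, 5.56 and 4.96 in other families, a difference of -0.963, -1.61 and 0.406 (mean -0.722 ± 1.03, SD, n = 3, exact sign-flip permutation p = 0.5), so libraries disagreed in sign. The reference is of another strain, which can count a germline difference as a non-germline base and cut short a V or TRAJ match. Of other rearrangements, 2904 of 3072 could be matched, against all 253 of TRAV14. Every TRAV14 rearrangement with TRAJ34 or TRAJ37 matched 14 TRAJ bases, with TRAJ45 22 and with TRAJ32 23. The match broke off at a fixed base there, so TRAJ and non-germline base counts depend on the TRAJ gene. With TRAJ31, in 7.91% of TRAV14 rearrangements beside 4.39% of others over all libraries, no TRAV14 rearrangement matched more than 20 of 26 TRAJ bases. In replicate 3, TRAJ37 and TRAJ34 were in 13.6% and 9.09% of TRAV14 rearrangements, beside 2.15% and 3.49% of others. Whether these breaks were strain differences was not tested. The net charge of CDR3 (lysine and arginine minus aspartate and glutamate) was 0.101, 0.0615 and 0.192 higher in TRAV14 (exact sign-flip permutation p = 0.25, the smallest possible).

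**Figure D4:**
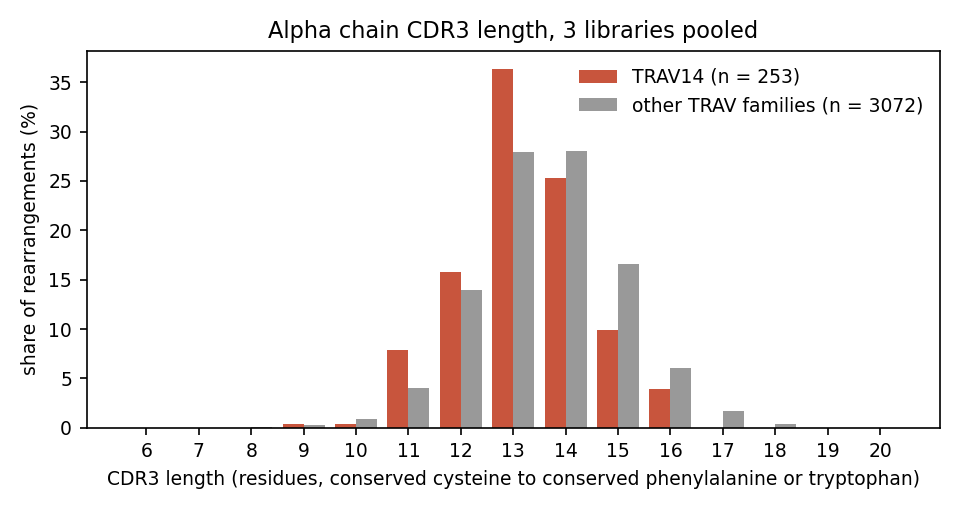
Share of rearrangements (percent, y axis) by alpha chain CDR3 length in residues (x axis), with the 3 libraries pooled, for TRAV14 (253 rearrangements) and other TRAV families (3072). The TRAV14 bars are higher at 11 to 13 residues and lower from 14 residues up.

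Beta chain partners were examined in paired rearrangements, that is, in cells with exactly 1 TRA and 1 TRB, each pair counted once in a library. There were 182 TRAV14 pairs of 2582 (56, 112 and 14 in replicates 1 to 3). TRBV1 was the most frequent partner, with 6, 16 and 2 pairs, 24 in all against 13.4 expected (ratio 1.79), and it was above in 3 of 3 libraries. Its adjusted p in the exact stratified test was 0.144. Pairs with the same TRA and different TRBs counted separately, so pairs were not all independent. Of the TRBV1 pairs, 3 had 1 TRAV14D-1 TRAJ18 TRA in replicate 2, and 2 had 1 TRAV14D-1 TRAJ5 TRA in replicate 1. TRBV13-1 and TRBV16 followed with 17 pairs each (16.1 and 12.6 expected, adjusted exact p = 1 and 0.758), then the joint name TRBV12-2+TRBV13-2, which the files use for 2 genes they did not separate, with 16 (19.4 expected, adjusted exact p = 0.918) and TRBV31 with 15 (9.70 expected, ratio 1.55, adjusted exact p = 0.50). TRBV13-2 under its own name had 5 pairs (8.72 expected, adjusted exact p = 0.797), so these ranks depend on how the joint name is counted. TRBV19, with 8 pairs against 15.9 expected (adjusted exact p = 0.343), was not above expectation in any library. Of the 17 TRBV genes tested with TRAV14 the exact test called 0, and 2 had an unadjusted p under 0.05. Over all pairs of TRAV family and TRBV gene, 1.40% were called (3 of 215).

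Expansion did not set the family apart. A rearrangement found in more than 1 cell was counted as expanded. That held for 14 of 89 TRAV14 rearrangements in replicate 1 (15.7%, exact interval 8.88 to 25.0, beside 22.2% of other families), 37 of 142 in replicate 2 (26.1%, 19.1 to 34.1, beside 23.2%) and 1 of 22 in replicate 3 (4.55%, 0.115 to 22.8, beside 14.8%). TRAV14 was below the other families in replicates 1 and 3 and above them in replicate 2. The 52 expanded were 0.934 of the 55.7 expected (adjusted p = 0.830, exact conditional test stratified by library), and the ratio was 1.04 without replicate 1. Of 17 TRAV families tested, 0% were called, and 1 had an unadjusted p under 0.05. By copy, 10 of 34 TRAV14-1, 17 of 73 TRAV14D-1, 7 of 43 TRAV14D-2, 7 of 36 TRAV14N-3, 7 of 38 TRAV14-3 and 4 of 29 TRAV14D-3-DV8 rearrangements were in more than 1 cell. Cells were counted by TRA alone, so an expanded rearrangement can hold cells with different TRBs. In replicate 1, the 2 cells of a TRAV14D-2 TRAJ49 rearrangement held a TRBV10 and a TRBV13-1 TRB. A cell with 2 TRAs counted under both.

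**Figure D5:**
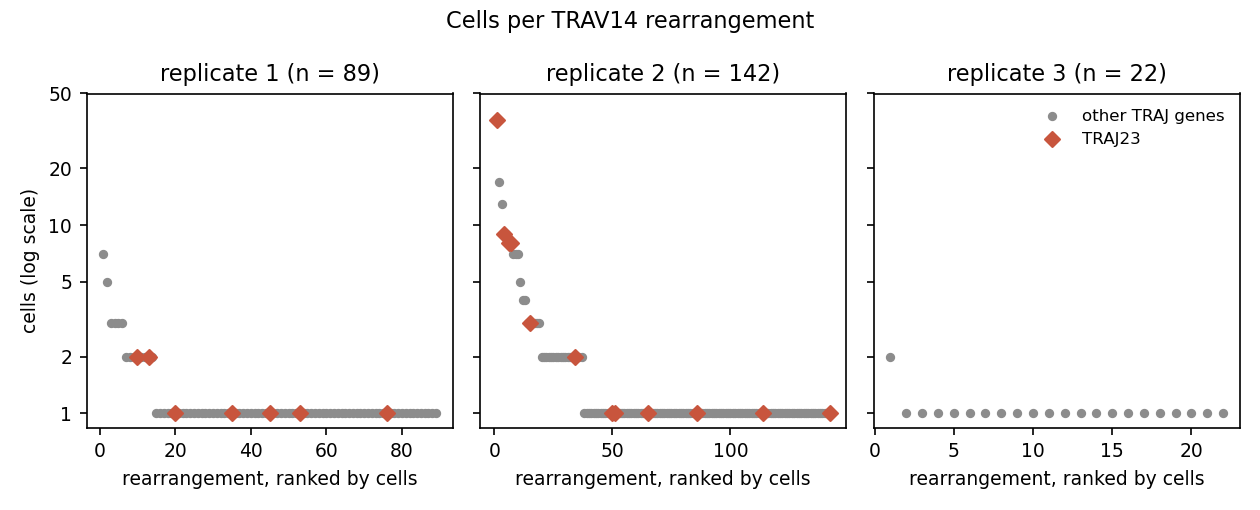
Cells per TRAV14 rearrangement (y axis, log scale), with rearrangements ranked by cells (x axis) in each library and diamonds for those joined to TRAJ23. The top of replicate 2 is a TRAJ23 rearrangement of 36 cells, and in replicate 3 1 rearrangement was in 2 cells and the rest in 1.

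The largest TRAV14 rearrangements differed between libraries. In replicate 1 the top rearrangement joined TRAV14D-2 to TRAJ13 in 7 cells (0.352% of cells with a TRA, interval 0.142 to 0.724), all with a single TRBV13-3 TRBJ2-3 TRB. The second joined TRAV14-1 to TRAJ45 in 5 cells, 4 with a TRBV13-1 TRB and 1 with no TRB, and 4 more, all of TRAV14D-1, had 3 cells each. In replicate 2 the top joined TRAV14D-1 to TRAJ23 in 36 cells (1.28%, interval 0.896 to 1.76), 28 of them with a TRBV20 TRBJ2-7 TRB, 7 with no TRB and 1 with a TRBV1 TRB. In replicate 3 a TRAV14-3 TRAJ12 rearrangement was in 2 cells, and all others were in 1. The 5 largest rearrangements of replicate 2 held 84 of its 285 TRAV14 cells (29.5%).

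Some TRAV14 rearrangements of replicate 2 were found with more than 1 TRB, in the same or in different cells, or beside a second TRA. TRAV14D-2 with TRAJ27 was in 17 cells, of which 14 held both a TRBV1 and a TRBV16 TRB, 2 the TRBV16 TRB alone and 1 the TRBV1 TRB alone. TRAV14D-1 with TRAJ18 was in 13 cells, each with 1 TRB, but these were 3 different TRBV1 TRBs in 8, 3 and 2 cells. TRAV14D-1 with TRAJ21 in 9 cells and TRAV14D-2 with TRAJ31 in 7 cells shared 1 TRBV14 TRBJ1-1 TRB, and 5 cells held both of these TRAs. Their joints are shown as cases that a count by 1 chain would split or merge, with capitals as above for the TRAs. Capitals of the TRAJ31 joint can include germline bases, since no TRAV14 rearrangement matched more than 20 of the 26 TRAJ31 bases of the reference.
TRAV14D-2 TRAJ27: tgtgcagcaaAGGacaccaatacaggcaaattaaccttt
its TRBV16 TRBJ1-6 partner: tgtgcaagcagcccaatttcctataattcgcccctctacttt
its TRBV1 TRBJ2-1 partner: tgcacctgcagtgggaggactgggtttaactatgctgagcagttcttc
TRAV14D-1 TRAJ18: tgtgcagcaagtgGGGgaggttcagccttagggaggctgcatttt
TRAV14D-1 TRAJ21: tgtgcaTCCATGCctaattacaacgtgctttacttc
TRAV14D-2 TRAJ31: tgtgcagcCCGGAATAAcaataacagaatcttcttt
the TRBV14 TRBJ1-1 partner of both: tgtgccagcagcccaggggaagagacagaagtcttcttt
Cells with 2 TRAs held 25.2%, 18.4% and 21.7% of TRAV14 contigs in replicates 1 to 3, beside 17.4%, 16.9% and 7.64% of other TRA contigs, and 2, 8 and 0 cells had 2 TRAV14 TRAs. Intervals of the family were 17.6 to 34.2, 14.2 to 23.4 and 7.46 to 43.7%. Whether such barcodes held 1 cell or 2 was not tested.

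Some TRBs of TRAJ23 receptors, among them those of the 36-cell and 9-cell clones, contained aspartate, tryptophan and glycine in a row, a stretch that the diversity gene TRBD2 can encode. It was in 5 of 17 paired TRAV14 TRAJ23 rearrangements (29.4%, exact interval 10.3 to 56.0), 9 of 165 TRAV14 pairs with other TRAJ genes (5.45%, 2.52 to 10.1) and 111 of 2400 pairs of other TRAV families (4.63%, 3.82 to 5.54). The last number includes 8 of 124 pairs with TRAJ23 (6.45%, 2.83 to 12.3). The TRBs of the TRAV14D-2 and TRAV14N-3 rearrangements of 8 cells each did not hold it. All 5 had arginine before it and, after 1 further residue, glutamate and glutamine. That longer pattern was in 12 of 2582 pairs of any family, which were 5 of 17 TRAV14 TRAJ23 pairs, 2 of 165 other TRAV14 pairs and 5 of 2400 pairs of other families, 1 of these among the 124 with TRAJ23. Both patterns were chosen after the sequences were seen, so these are counts with no test.

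All 7 TRAV14 receptors with the longer pattern came from replicates 1 and 2, and their TRBs are shown with that of the top clone of replicate 1, which holds the shorter pattern alone. Capitals here mark the codons for aspartate, tryptophan and glycine.
with TRAV14D-1 TRAJ23, replicate 2, 28 cells, TRBV20 TRBJ2-7: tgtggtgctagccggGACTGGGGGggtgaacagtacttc
with TRAV14D-1 TRAJ23, replicate 1, 1 cell, TRBV31 TRBJ2-7: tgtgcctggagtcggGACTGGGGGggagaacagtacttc
with TRAV14-1 TRAJ23, replicate 2, 9 cells, TRBV5 TRBJ2-7: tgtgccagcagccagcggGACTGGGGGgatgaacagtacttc
with TRAV14-1 TRAJ23, replicates 1 and 2, 1 cell each, TRBV5 TRBJ2-7: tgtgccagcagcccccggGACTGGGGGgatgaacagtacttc
with TRAV14D-1 TRAJ7, replicate 1, 1 cell, TRBV20 TRBJ2-1: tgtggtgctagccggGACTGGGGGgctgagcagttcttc
with TRAV14D-1 TRAJ56, replicate 2, 1 cell, TRBV13-3 TRBJ2-7: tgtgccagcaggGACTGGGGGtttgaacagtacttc
with TRAV14D-2 TRAJ13, replicate 1, 7 cells, TRBV13-3 TRBJ2-3: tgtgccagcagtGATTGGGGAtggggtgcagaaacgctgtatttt
The 28-cell receptor of replicate 2 and the single cell of replicate 1 used different TRBV genes, yet their TRAs differed by 1 of 14 residues (2 bases) and their TRBs by 2 of 13 residues (7 bases). The TRAV14-1 TRAJ23 receptor with TRBV5 was identical in the nucleotides of both CDR3s in 1 cell of replicate 1 and 1 cell of replicate 2, with 2 UMIs for the TRA in each. It differed from the 9-cell clone by 1 of 13 residues in the TRA and 1 of 14 in the TRB.

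In all, 10 TRAV14 amino acid TRAs were found in more than 1 library, 9 in replicates 1 and 2 and 1 in replicates 1 and 3. They were 10 of 84 TRAV14 amino acid TRAs in replicate 1 (11.9%, exact interval 5.86 to 20.8, beside 7.69% of other families), 9 of 138 in replicate 2 (6.52%, 3.03 to 12.02, beside 5.85%) and 1 of 22 in replicate 3 (4.55%, 0.115 to 22.8, beside 10.8%). Each library's interval held the share of the other families. They joined TRAJ23, TRAJ26, TRAJ31, TRAJ40, TRAJ52 and TRAJ58 once each and TRAJ43 and TRAJ49 in 2 cases each. In 5 of the 10 the nucleotides were identical in both libraries, under different copy names in some, as for TRAJ49 (TRAV14D-3-DV8 in replicate 1 and TRAV14-3 in replicate 2).

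Of the 9 with a TRB in both libraries, 6 had a TRBV gene in common (66.7%, exact interval 29.9 to 92.5), beside 46 of 93 shared TRAs of other families (49.5%, 38.9 to 60.03), and the intervals overlapped. The common genes were TRBV16 for TRAJ43 and TRAJ52, TRBV31 for TRAJ40, TRBV5 for TRAJ23, TRBV1 for TRAJ49 and TRBV2 for TRAJ31. The TRAJ40 and TRAJ52 cases each had 3 rearrangements, all with the same TRBV gene, and are shown for that reason. Capitals mark non-germline bases in the TRAs and, in the TRBs, the codons for aspartate, tryptophan and glycine.
TRAJ52, TRAV14-3, replicate 1: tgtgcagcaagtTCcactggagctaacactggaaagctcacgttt
its TRBV16 TRBJ2-7 partner: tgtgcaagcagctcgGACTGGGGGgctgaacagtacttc
TRAJ52, TRAV14D-3-DV8, replicate 1: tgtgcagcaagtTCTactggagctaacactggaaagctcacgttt
its TRBV16 TRBJ2-4 partner: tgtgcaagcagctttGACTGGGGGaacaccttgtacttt
TRAJ52, TRAV14D-3-DV8, replicate 2, 3 cells: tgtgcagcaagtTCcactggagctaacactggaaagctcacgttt
its TRBV16 TRBJ2-5 partner: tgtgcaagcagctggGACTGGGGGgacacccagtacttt
TRAJ40, TRAV14-3 and TRAV14D-3-DV8, replicate 1, 1 cell each: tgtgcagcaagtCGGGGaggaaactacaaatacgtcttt
TRAJ40, TRAV14D-3-DV8, replicate 2, 1 cell: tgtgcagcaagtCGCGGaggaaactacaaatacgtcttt
All 3 TRAJ52 rearrangements were with different TRBV16 TRBs that held aspartate, tryptophan and glycine, while the 3 TRAJ40 rearrangements were with 3 different TRBV31 TRBs. These TRAs came under the names TRAV14-3 and TRAV14D-3-DV8, the pair whose V regions could hardly be told apart.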

How the data were processed

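Single-cell TCR libraries of CD45+ nerve cells were made with the 10x Genomics V(D)J kit, and the authors assembled and annotated contigs with Cell Ranger against mm10 (version not given in the sources used here). The deposited tables give counts of reads and UMIs per contig, with no normalization. Productive TRA and TRB contigs on cell barcodes were used. The members and lists were chosen with earlier results of these data known. V and TRAJ positions and sequences came from GRCm38 (GENCODE M21), and CDR3s were matched to the V end and TRAJ start. Pairs of TRAV family with TRAJ or TRBV gene (expected number at least 3) and expansion of families with at least 10 rearrangements were tested with an exact two-sided conditional test stratified by library, with Benjamini-Hochberg adjustment over each table (threshold 0.05). Rearrangements, not mice, were the units of these tests, so p-values describe the libraries sampled. Other traits were compared by library with exact sign-flip permutation tests. The named features were all copies, the 5 most frequent TRAJ and TRBV partners, called pairs, TRAJ23, the 3 largest rearrangements of a library, TRAs shared between libraries and the 3 families most alike in TRAJ use. The TRAJ pair and expansion tests were first run on permuted versions of these data, with and without raised pairs or families. TRAV14 with TRAJ58 was among the raised pairs. The TRBV pair and sign-flip tests were not run in this way. Alternatives were contigs with at least 3 UMIs, merged copy names, cells with 1 TRA, other thresholds and each library left out. The authors' clonotype and consensus tables were not used. Python 3.11.15, pandas 2.3.3 and SciPy 1.17.1 were used.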

Additional observations from a re-analysis of the deposited data

Results flagged for a closer look

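TRAV14 was also read outside the main measurement. TRA contigs with a TRAV14 gene and no productive frame were on cell barcodes in 59, 42 and 9 cases in replicates 1 to 3, which was 8.30%, 6.09% and 6.62% of such TRA contigs. Productive TRAV14 TRA contigs on barcodes that were not called cells numbered 240, 100 and 18, or 5.01%, 9.39% and 5.98% of all productive TRA contigs there, with a median of 1, 3 and 1 UMIs. No control samples were among the libraries to set these counts against.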

How the results depend on the processing

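The call of TRAJ58 was the least stable result. With copy names merged, in cells with exactly 1 TRA and over amino acid rearrangements, 0 TRAJ genes were called with TRAV14 and the ratio of TRAJ58 was 2.92, 3.28 and 2.73. Leaving out 1 library gave 0 called in each case, and the ratio was 2.93 without replicate 3, the only case in which the pair was tested. With an expected number of at least 1, or at least 3 UMIs, 1 was called. Leaving out a library tests fewer rearrangements, and the cause was not tested otherwise. The ratio of expansion changed side with contigs of at least 3 UMIs (1.05) and ranged from 0.669 (without replicate 2) to 1.04 (without replicate 1) when 1 library was left out, and it passed the test in none. Leaving out 1 library in turn, the mean share of rearrangements ranged from 6.41 to 7.79% and that of cells from 5.34 to 7.90%, and the differences in CDR3 length (-0.551 to -0.354 residues), non-germline bases (-1.29 to -0.278) and TRAJ position of D copies (2.34 to 3.94 kb) kept their sign. No paired analysis was possible because the libraries were all of 1 condition. Alternatives chosen after seeing the data were a count of shared TRAs with at least 3 UMIs, which was 7, and the joint TRBV name counted as TRBV13-2, which left TRBV1 at 1.78 (adjusted exact p = 0.118, over alternatives 0.118 to 0.738). Depth limits replicate 3, with 22 TRAV14 rearrangements.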
